A study of Mus musculus with 28 samples.

Results

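Cct3, Cct4, Cct6a and Cct8 encode subunits of the cytosolic chaperonin CCT, and their transcripts were followed in 28 single neurons of the mouse primary motor cortex (M1). The members are the genes whose symbol in the deposited table equals one of these names. All 4 were found among the 1024 genes of the table.

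CCT is a barrel of stacked rings, each built from different but related subunits that are encoded by separate genes. It binds unfinished polypeptides, closes over them and uses ATP to fold them. Its best known clients are actin and the tubulins, from which the axons and dendrites of a cortical neuron build their cytoskeleton. Prefoldin and the Hsp70 system deliver clients to it.

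The neurons came from CD1 mice at postnatal day 30. All 3 groups had received the same plasmids by electroporation in utero on embryonic day 15: pHSE-FLPo, a recombinase driven by a heat shock response element, pFRT-RFP, a red reporter that the recombinase turns on, and pCAGIG, which marks each electroporated cell with GFP. Of the groups, 15 were RFP-positive neurons (GFP and RFP) from dams given ethanol (EtOH), 7 were RFP-negative neurons (GFP alone) from dams given EtOH, and 6 were RFP-negative neurons from dams given phosphate-buffered saline (PBS). Injections were intraperitoneal on embryonic days 16 and 17, and the EtOH dose is given as either 4.0 g/kg or 1.0 g/kg, with no label saying which neuron goes with which. RFP depends on the heat shock element of the plasmid and on recombination, so it reports past activity of that element in the cell and not the level of any chaperone at postnatal day 30. The time course label of the PBS neurons mentions EtOH, and the titles and exposure labels, which give PBS, were followed. No label names the animal of a neuron, so neurons of a group may share an animal, each group counts as 1 sample, and no p-value is given. SDs and n are over neurons.

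Each gene has 1 value per neuron on a log scale taken as log2, and read depth is unknown. Values over all genes ran from 1.00 to 13.2 with a lowest mode between 1.75 and 2, a middle mode between 5.75 and 6 and an upper mode between 9.5 and 9.75. The troughs between these modes lay at 4 and 8. A value over 4 is called above the trough here, a value over 8 is called high, and a low value does not show that the transcript was missing. The labels do not say whether values are per length, so levels of different genes are not ranked. The number of genes above the trough was 273 to 434 in RFP-positive EtOH neurons, 274 to 366 in RFP-negative EtOH neurons and 286 to 412 in PBS neurons. PBS neuron 1 had 258 high genes, the most of all neurons, against 132 to 157 in the other PBS neurons. The pyramidal marker Nrgn was over 4 in 15 of 15 RFP-positive EtOH, 7 of 7 RFP-negative EtOH and 5 of 6 PBS neurons. Mef2c, the other measured pyramidal marker, was over 4 in 13, 6 and 6 of them, and the interneuron marker Gad1 in 3, 2 and 1. By exactly equal values, 24 neurons formed a large set and 4 stood outside it (RFP-positive EtOH neurons 1 and 2, RFP-negative EtOH neuron 1 and PBS neuron 6).

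Start regions of Cct3, Cct6a and Cct8 were taken from RefSeq (GRCm38.p6), because the reporter of the study is itself switched by a heat shock response element. The Cct6a start of RefSeq lies inside the span that GENCODE gives the gene. Each window of 120 bases reads 5′ to 3′ on the strand of the gene, and capitals mark CCAAT or its reverse complement ATTGG.
Cct3, plus strand, chr3:88296996-88297115: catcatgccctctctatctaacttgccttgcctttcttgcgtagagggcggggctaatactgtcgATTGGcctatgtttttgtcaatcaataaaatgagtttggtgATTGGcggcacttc
Cct6a, plus strand, chr5:129787236-129787355: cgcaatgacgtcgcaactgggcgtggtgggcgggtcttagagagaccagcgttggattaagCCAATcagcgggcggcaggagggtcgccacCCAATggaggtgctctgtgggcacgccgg
Cct8, minus strand, chr16:87495874-87495993: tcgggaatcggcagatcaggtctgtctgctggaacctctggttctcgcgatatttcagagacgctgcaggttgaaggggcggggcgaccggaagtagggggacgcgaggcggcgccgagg

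Facing pairs of heat shock element units were searched as GAANNTTC and TTCNNGAA on both strands in the 250 bases before each start. The 3 start regions held 0 matches to either. Among 32851 RefSeq start regions of the same length, 6.69% held GAANNTTC and 7.17% held TTCNNGAA. CCAAT, searched on both strands after the windows had been seen, occurred 2 times each in the start regions of Cct3 and Cct6a and 0 times in that of Cct8, while 33.8% of all start regions held it. No match overlapped one of another motif. A match is a string of letters and not a shown binding site, and 0 matches says nothing about a factor.

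Each neuron had 273 to 434 of the 1024 genes above the trough, and the counts of subunits are to be read beside that share. Of 28 neurons, 17 had exactly 1 subunit above the trough, 5 had 0, 3 had 2, 2 had 3 and 1 had all 4. Among RFP-positive EtOH neurons, 9 of 15 had exactly 1 subunit above the trough, as had 4 of 7 RFP-negative EtOH and 4 of 6 PBS neurons. The neuron with all 4 was PBS neuron 1, with values of 5.42 for Cct3, 11.04 for Cct4, 10.47 for Cct6a and 6.06 for Cct8, and this is also the neuron with the most high genes. RFP-positive EtOH neuron 4 had the next most high genes, 236, and 0 subunits above the trough. RFP-positive EtOH neurons 9 and 13 had 3 each, without Cct8 in neuron 9 and without Cct6a in neuron 13.

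**Figure D1:**
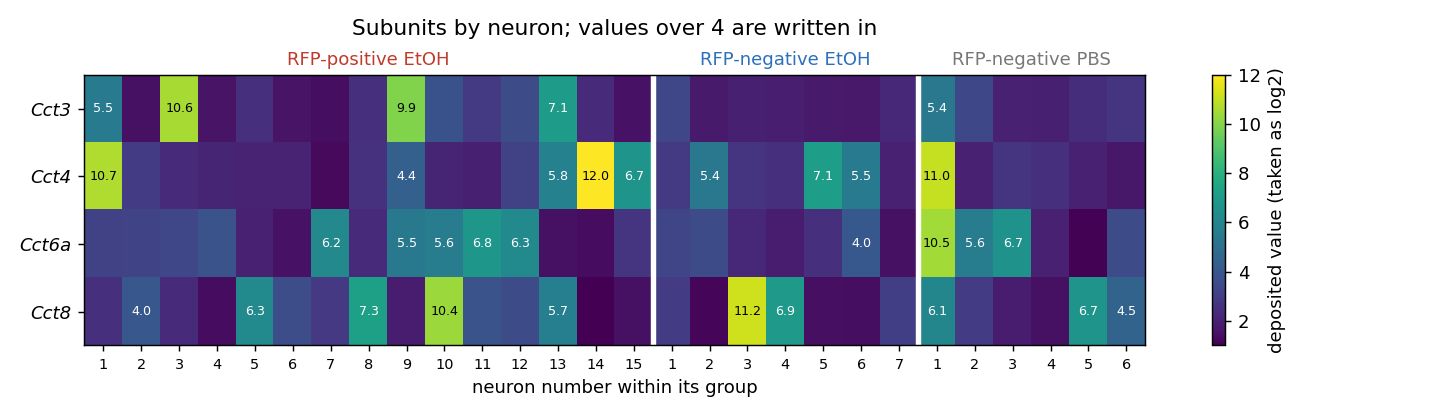
Deposited values (colour, taken as log2) of the 4 subunit genes (rows) in each of the 28 neurons (columns, by group and neuron number), with values over 4 written in. Most columns hold 1 written value, PBS neuron 1 holds 4, and the Cct3 row holds none among RFP-negative EtOH neurons.

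Across all 28 neurons, Spearman correlations between the subunits ran from -0.37 for Cct4 with Cct8 to 0.26 for Cct3 with Cct8. The median over the 6 pairs was 0.02, beside 0.02 over all pairs of genes in the table. After each neuron was shifted to the same upper quartile, these medians were 0.20 and 0.11, and without PBS neuron 1 they were -0.08 and 0.02. The points of each pair share a library, and libraries differ in how many genes lie above the trough, so these values are a description only. Cct3 and Cct4 overlapped most often: of the 5 neurons with Cct3 above the trough, 4 also had Cct4 there, out of 9 with Cct4. The other pairs met in 2 or 3 neurons each.

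Cct3 was above the trough least often. Cct8 lay above the trough in 10 of 28 neurons, Cct4 and Cct6a in 9 each and Cct3 in 5, and the median gene of the table in 8. Of the 1024 genes, 737 lay above the trough in more neurons than Cct3 did, and 339 in more than Cct8 did. The number of subunits above the trough had a Spearman correlation of 0.32 with the number of all genes above the trough over the 28 neurons. Among single subunits this correlation was 0.40 for Cct4, 0.07 for Cct3, 0.04 for Cct6a and -0.01 for Cct8.

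Cct3 encodes the gamma subunit (ENSMUSG00000001416, chromosome 3, 88297116 to 88321767, plus strand, GRCm38). Its lowest, median and highest values were 1.42, 2.53 and 10.57 in RFP-positive EtOH neurons, 1.76, 1.91 and 3.35 in RFP-negative EtOH neurons, and 1.98, 2.56 and 5.42 in PBS neurons. The RFP-positive neurons above the trough were numbers 1, 3, 9 and 13, with 5.52, 10.57, 9.90 and 7.09. No RFP-negative EtOH neuron lay above it, and among PBS neurons only number 1 did. The groups overlap, since the other 11 RFP-positive neurons lay between 1.42 and 3.79. The share above the trough was 26.7% in RFP-positive EtOH neurons (95% exact Clopper-Pearson interval 7.79 to 55.1%), and with 0 of 7 RFP-negative EtOH neurons a share as large as 42.9% is possible, taking 3 neurons as the bound. Both bounds reflect counting alone.

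Cct4 encodes the delta subunit (ENSMUSG00000007739, chromosome 11, 22990519 to 23003780, plus strand). It ran from 1.27 over a median of 2.55 to 11.99 in RFP-positive EtOH neurons, from 2.00 over 2.86 to 7.14 in RFP-negative EtOH neurons, and from 1.72 over 2.28 to 11.04 in PBS neurons. It was above the trough in RFP-positive neurons 1, 9, 13, 14 and 15, with 10.71, 4.37, 5.82, 11.99 and 6.71. In RFP-negative EtOH neurons 2, 5 and 6 it had 5.41, 7.14 and 5.48. Both EtOH groups thus held neurons in the middle mode, while high values of Cct4 occurred in 2 RFP-positive EtOH neurons, 0 RFP-negative EtOH neurons and 1 PBS neuron. Without PBS neuron 1, the PBS values all lay at 2.71 or lower.

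Cct6a encodes the zeta subunit (ENSMUSG00000029447, chromosome 5, 129786998 to 129846371, plus strand), the form found in most tissues, whose paralog Cct6b was not analysed here. It had a lowest value of 1.37, a median of 3.27 and a highest of 6.84 in RFP-positive EtOH neurons. In RFP-negative EtOH neurons these were 1.51, 2.54 and 4.02, and in PBS neurons 1.05, 4.57 and 10.47. Above the trough were RFP-positive neurons 7, 9, 10, 11 and 12, with 6.19, 5.46, 5.63, 6.84 and 6.25, RFP-negative EtOH neuron 6 with 4.02, and PBS neurons 1, 2 and 3 with 10.47, 5.60 and 6.66. The RFP-negative EtOH neurons were the most compact group, and their only value above the trough lay just over it. GENCODE lists this gene ID as a processed transcript, while RefSeq lists Cct6a as protein-coding. Its exons share 452 of 3620 bases with Psph on the opposite strand and 102 with Snora15 on the same strand, so its values can include reads of those genes.

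Cct8 encodes the theta subunit (ENSMUSG00000025613, chromosome 16, 87483326 to 87495873, minus strand). Its lowest, median and highest values were 1.00, 3.58 and 10.36 in RFP-positive EtOH neurons, 1.20, 2.93 and 11.22 in RFP-negative EtOH neurons, and 1.51, 3.70 and 6.69 in PBS neurons. Above the trough were neurons 2, 5, 8, 10 and 13 of the RFP-positive group, with 4.01, 6.28, 7.25, 10.36 and 5.75, neurons 3 and 4 of the RFP-negative EtOH group, with 11.22 and 6.91, and neurons 1, 5 and 6 of the PBS group, with 6.06, 6.69 and 4.50. Each EtOH group thus held 1 neuron with high Cct8, the PBS group held 0, and the groups overlap. Exons of Cct8 share 192 of 3088 bases with Usp16 on the opposite strand. The library kits do not keep strand.

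**Figure D2:**
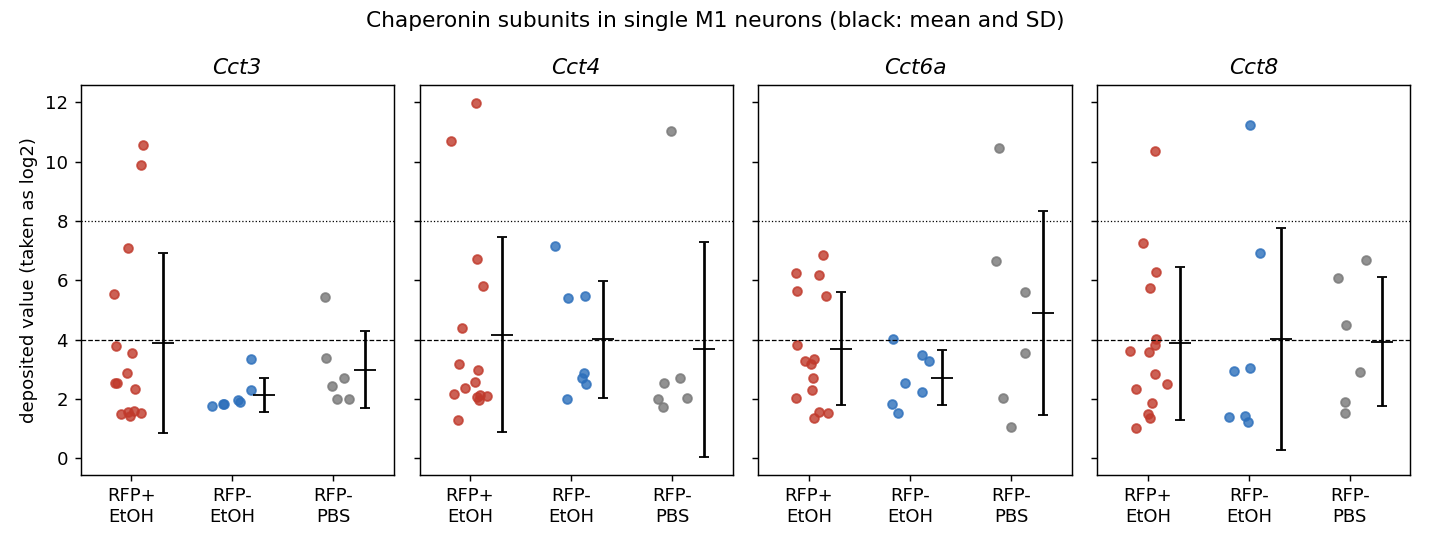
Deposited values (taken as log2) of each subunit gene in every neuron, by group, with the group mean and SD in black, the trough at 4 dashed and that at 8 dotted. Groups overlap for all 4 genes, and the RFP-negative EtOH neurons lie close together for Cct3 and Cct6a.

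RFP-positive and RFP-negative neurons of the EtOH groups were set side by side. The question was whether neurons with RFP differ from exposed neurons in which the reporter stayed off. Absence of RFP does not show that the heat shock element was never active in a neuron. The Cct3 mean of RFP-positive EtOH neurons was 3.89 ± 3.04 (SD, n = 15), that of RFP-negative EtOH neurons was 2.13 ± 0.57 (SD, n = 7), and the difference was 1.76. This is the 89th largest positive difference of the 1024 genes and stands 1.44 over the median of all genes, which was 0.31. The Cct6a means were 3.69 ± 1.90 in the RFP-positive and 2.71 ± 0.92 in the RFP-negative group, with a difference of 0.99. Cct4 and Cct8 differed by 0.15 and -0.15. None of these differences exceeded the spread (SD) within the RFP-positive group.

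One of the 4 subunits, Cct3, was higher by at least 1 in RFP-positive EtOH neurons, and 26.3% of all genes were. None was lower by at least 1, beside 15.7% of all genes. After each neuron was shifted to the same upper quartile, 139 genes were higher and 268 lower by at least 1, in place of 269 and 161, and Cct3 was 1.25 higher. A gene above the trough in 0 RFP-negative EtOH and at least 4 RFP-positive EtOH neurons, as Cct3 was, is not rare in the table, where 9.86% of genes had that pattern. The median difference of the 4 subunits was 0.57, against 0.31 for all genes. The upper quartile shift, which moved every gene by -0.51, left these medians at 0.06 and -0.20. For Cct3, the groups' medians differed by 0.62, so its larger difference of means came with the 4 neurons above the trough. The Cct3 difference was 2.02 within the large set, 2.65 among neurons with Mbp below the trough and 1.28 without RFP-positive neuron 3. Cct6a was 1.21 without RFP-negative EtOH neuron 6 and 1.16 in the large set, but 0.51 among neurons with Gad1 below the trough and 0.48 after the upper quartile shift. Cct8 was 1.05 without RFP-negative EtOH neuron 3, and Cct4 was -0.41 without RFP-positive neuron 14. The astrocyte genes Slc1a2 and Aldoc had higher means in RFP-positive than in RFP-negative EtOH neurons by 1.13 and 1.06, with Slc1a2 at 0.64 without RFP-negative EtOH neuron 2 and at 1.91 without neuron 4, and Aldoc at 0.57 without RFP-positive neuron 8. The summed level of both ran from 2.72 to 10.23 in RFP-positive and from 2.56 to 9.03 in RFP-negative EtOH neurons on the log2 scale, and its part in the Cct3 difference was not tested.

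RFP-negative neurons from EtOH and PBS litters address EtOH exposure where the reporter stayed off. Cct6a averaged 2.71 ± 0.92 (SD, n = 7) in EtOH and 4.89 ± 3.45 (SD, n = 6) in PBS neurons, a difference of -2.19, which is the 91st lowest of the 1024 genes. Cct3 averaged 2.13 ± 0.57 in EtOH and 2.98 ± 1.30 in PBS neurons, a difference of -0.86. Cct4 and Cct8 differed by 0.34 and 0.09. Each of these differences was smaller than the larger of the SDs.

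Cct6a was the 1 subunit lower by at least 1 in RFP-negative EtOH neurons, beside 26.8% of all genes, and 0 were higher by at least 1, beside 23.8% of all genes. The median of the 4 subunits was -0.38, and that of all genes -0.06. Without PBS neuron 1, Cct6a differed by -1.07, Cct3 by -0.37 and Cct4 by 1.82, and the median of the 4 was 0.07. Without RFP-negative EtOH neuron 3, Cct8 differed by -1.11 and the median of the 4 was -0.97. Without RFP-negative EtOH neuron 1, Cct3 differed by -1.06. After the upper quartile shift, 362 genes were higher and 187 lower by at least 1, in place of 244 and 274. Cct6a then differed by -1.63, and the subunit median was 0.17, beside 0.49 over all genes. Some glial transcripts also had lower means in RFP-negative EtOH neurons. Mbp, a myelin protein gene, averaged 3.25 ± 2.23 in EtOH and 6.96 ± 3.68 in PBS neurons. The astrocyte genes Slc1a2 and Aldoc differed by -2.06 and -2.13, and Aldoc by -1.14 without PBS neuron 4. The summed level of the 2 measured of 5 astrocyte markers ran from 2.56 to 9.03 in EtOH and from 3.07 to 9.79 in PBS neurons on the log2 scale. The lowest value of the whole table was 1.00, so no gene could be listed at 0. The part of these 3 genes in the Cct6a difference was not tested. PBS neurons with Mbp below the trough numbered 2, too few for a comparison without the others.

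RFP-positive EtOH against PBS neurons uses the same RFP-positive neurons and the same PBS neurons as above, so its values are not independent of the others. Cct3 averaged 3.89 in RFP-positive EtOH and 2.98 in PBS neurons, a difference of 0.90. Cct4 and Cct8 differed by 0.49 and -0.06. Cct6a averaged 3.69 ± 1.90 in RFP-positive EtOH and 4.89 ± 3.45 in PBS neurons, a difference of -1.20, and was the 1 subunit lower by at least 1, beside 19.2% of all genes. None was higher by at least 1, beside 24.9% of all genes. Without PBS neuron 1 the Cct6a difference was -0.08, and without PBS neuron 5 it was -1.97. Without PBS neuron 1, Cct3 and Cct4 differed by 1.39 and 1.96. Without RFP-positive neuron 3, Cct3 differed by 0.42. Mbp averaged 3.60 ± 1.65 in RFP-positive EtOH and 6.96 ± 3.68 in PBS neurons, and its part in the Cct6a difference was not tested. The median of the 4 subunits was 0.21, and that of all genes 0.26.

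**Figure D3:**
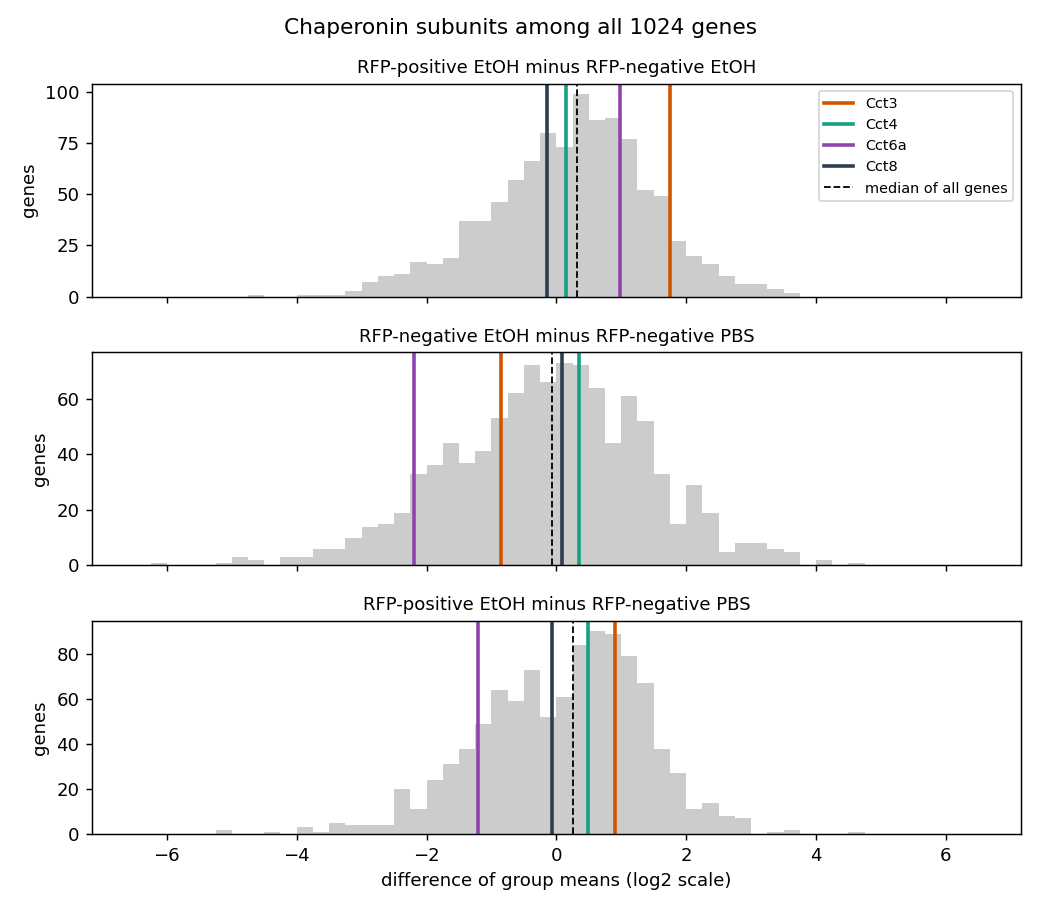
Differences of group means on the log2 scale (horizontal axis) for all 1024 genes (grey counts, vertical axis) in each comparison, with each subunit as a coloured line and the median of all genes dashed. The subunits lie within the grey distribution, with Cct3 at 1.76 in the top panel and Cct6a at -2.19 in the middle panel the farthest out.

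In order of their means, the groups ran RFP-positive EtOH (3.89), PBS (2.98) and RFP-negative EtOH (2.13) for Cct3. For Cct6a they ran PBS (4.89), RFP-positive EtOH (3.69) and RFP-negative EtOH (2.71). The groups lay within 0.49 of each other for Cct4 and within 0.15 for Cct8. No pair of neighbours in these orders differed by more than the larger SD. By medians, Cct3 was 2.53 in RFP-positive EtOH and 2.56 in PBS neurons, the reverse of their order by means. The Cct6a order by medians was the same as by means. Without PBS neuron 1, the Cct6a means of RFP-positive EtOH and PBS neurons differed by only -0.08.

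Genes that work with CCT or are folded by it were taken from lists of partners and reported clients, and 21 of them were measured. Between RFP-positive and RFP-negative EtOH neurons, 13 of the 21 had higher and 8 lower means, with a median difference of 0.63 and with 9 higher and 1 lower by at least 1. Over all 1024 genes, 614 had higher and 410 lower means with a median of 0.31, and 269 were higher and 161 lower by at least 1, so the split into higher and lower was near that of the table. After the upper quartile shift 12 were higher and 9 lower, where the median of all genes was -0.20. Between RFP-negative EtOH and PBS neurons, 9 had higher and 12 lower means, with a median of -0.24, beside 497 higher and 527 lower and a median of -0.06 over all genes. There the upper quartile shift, which moved every gene by 0.55, turned the split into 12 higher and 9 lower. The median of all genes was then 0.49, so the table as a whole moved in the same direction. Between RFP-positive EtOH and PBS neurons, 13 had higher and 8 lower means, beside 579 and 445 over all genes, and 15 and 6 without PBS neuron 1. The split of all genes after the shift or without PBS neuron 1 is not given here. No set was tested.

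Pfdn5, the measured 1 of 7 prefoldin genes and part of the complex that hands unfolded actin and tubulin to CCT, was, like Cct3, below the trough in every RFP-negative EtOH neuron. Of 15 RFP-positive EtOH neurons, 5 had it above the trough, as had 0 of 7 RFP-negative EtOH and 0 of 6 PBS neurons, with highest values of 9.85, 3.64 and 3.33. In the table, 9.86% of genes were above the trough in 0 RFP-negative EtOH and at least 4 RFP-positive EtOH neurons. Its differences were 1.82 between RFP-positive and RFP-negative EtOH neurons, 0.09 between RFP-negative EtOH and PBS neurons, and 1.91 between RFP-positive EtOH and PBS neurons. Across the 28 neurons its closest subunit was Cct8, with a Spearman correlation of 0.39, and its correlation with Cct3 was -0.01.

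The tubulins had the widest differences among the clients. Tubb5, a beta tubulin, had a lowest value of 2.52, a median of 4.15 and a highest of 11.23 in RFP-positive EtOH neurons, 2.37, 2.72 and 3.11 in RFP-negative EtOH neurons, and 3.57, 5.94 and 11.78 in PBS neurons. All RFP-negative EtOH neurons thus lay below all PBS neurons, a pattern of 0.293% of the genes in the table, and the difference was -3.72. The values nearest each other, 3.11 and 3.57, were both below the trough, and 5 of 6 PBS neurons were above it. Against RFP-positive EtOH neurons the groups overlapped, with a difference of 2.88. Tubb4a, a beta tubulin abundant in brain, differed by 1.06 between RFP-positive and RFP-negative EtOH neurons and by -2.95 between RFP-negative EtOH and PBS neurons, and Tuba1b, an alpha tubulin, by 2.04 and -1.95. The first Tubb4a value was 1.64 without RFP-negative EtOH neuron 1, 0.74 without RFP-positive neuron 4 and 0.55 after the upper quartile shift. Tuba1a, another alpha tubulin, differed by -0.28 and -0.44, the second of which was 0.11 after the upper quartile shift.

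Tubb3, the neuronal beta tubulin, had another order. It averaged 7.03 ± 3.86 in RFP-positive EtOH, 5.13 ± 3.24 in RFP-negative EtOH and 3.31 ± 1.26 in PBS neurons. It was above the trough in 11 of 15 RFP-positive EtOH, 3 of 7 RFP-negative EtOH and 2 of 6 PBS neurons. The difference between RFP-positive EtOH and PBS neurons was 3.73, and that between RFP-negative EtOH and PBS neurons was 1.83, or 0.99 without RFP-negative EtOH neuron 1. Tubulin genes are closely alike in sequence, and the sources used here do not say how reads with several matches were counted.

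Of the actin genes, Actb averaged 7.80 ± 2.72 in RFP-positive EtOH, 5.71 ± 1.33 in RFP-negative EtOH and 8.22 ± 2.44 in PBS neurons. Actg1, the other cytoplasmic actin, differed by 0.83 between RFP-positive and RFP-negative EtOH neurons and by -0.58 between RFP-negative EtOH and PBS neurons, and without RFP-negative EtOH neuron 5 these values were -0.06 and 0.30. Actr2, an actin-related protein that helps start new filaments, differed by 0.63 and -0.11, the second of which was 0.44 after the upper quartile shift. Actg1 was above the trough in 14 of 15 RFP-positive EtOH, 6 of 7 RFP-negative EtOH and 6 of 6 PBS neurons.

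Among other clients, Ppp4c, a protein phosphatase catalytic subunit, was above the trough in 4 of 15 RFP-positive EtOH, 0 of 7 RFP-negative EtOH and 1 of 6 PBS neurons. A gene with 0 such RFP-negative EtOH and at least 4 such RFP-positive EtOH neurons was not rare, at 9.86% of the table. Ppp4c differed by 1.83 between RFP-positive and RFP-negative EtOH neurons. Strn and Strn4, striatin scaffolds of protein phosphatase complexes, differed by 1.36 and -0.08 in that comparison. The G protein beta subunits Gnb1 and Gnb4 differed by -0.73 and 0.50, and the Gnb4 value was -0.01 after the upper quartile shift. Between RFP-negative EtOH and PBS neurons, Gnb4 and Ppp4c differed by -1.55 and -1.30, but by 0.01 without PBS neuron 1 for Gnb4 and by -0.12 without PBS neuron 5 for Ppp4c. Strn4 differed by 1.23 there, by 0.33 without RFP-negative EtOH neuron 2 and by 2.22 without PBS neuron 5.

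The Hsp70 and Hsp90 list had 7 measured genes. Between RFP-positive and RFP-negative EtOH neurons, 2 had higher and 5 lower means, with a median of -0.34 beside 0.31 over all genes, and between RFP-negative EtOH and PBS neurons, 5 had higher and 2 lower means, with a median of 0.75 beside -0.06 over all genes. These splits were the same after the upper quartile shift. St13, an Hsp70 co-chaperone, had medians of 2.71 in RFP-positive EtOH, 6.57 in RFP-negative EtOH and 2.59 in PBS neurons, with ranges of 2.06 to 10.16, 2.53 to 9.64 and 1.56 to 6.28. Stub1, a ubiquitin ligase bound to Hsp70, differed by 1.88 between RFP-positive and RFP-negative EtOH neurons and by -2.39 between RFP-negative EtOH and PBS neurons, and the second value was -1.40 without PBS neuron 1. The abundant chaperone genes Hspa8, Hsp90aa1 and Hsp90ab1 differed by -0.34, -0.45 and -0.64 in the first of these comparisons, but Hspa8 by 0.12 without RFP-negative EtOH neuron 1 and Hsp90aa1 by 0.03 without RFP-positive neuron 5. Stip1, which links Hsp70 to Hsp90, and Ptges3, an Hsp90 co-chaperone, differed by -0.28 and 0.63, with Stip1 at 0.26 without RFP-negative EtOH neuron 3. Hsp90ab1 was above the trough in 14 of 15 RFP-positive EtOH, 7 of 7 RFP-negative EtOH and 6 of 6 PBS neurons.

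**Figure D4:**
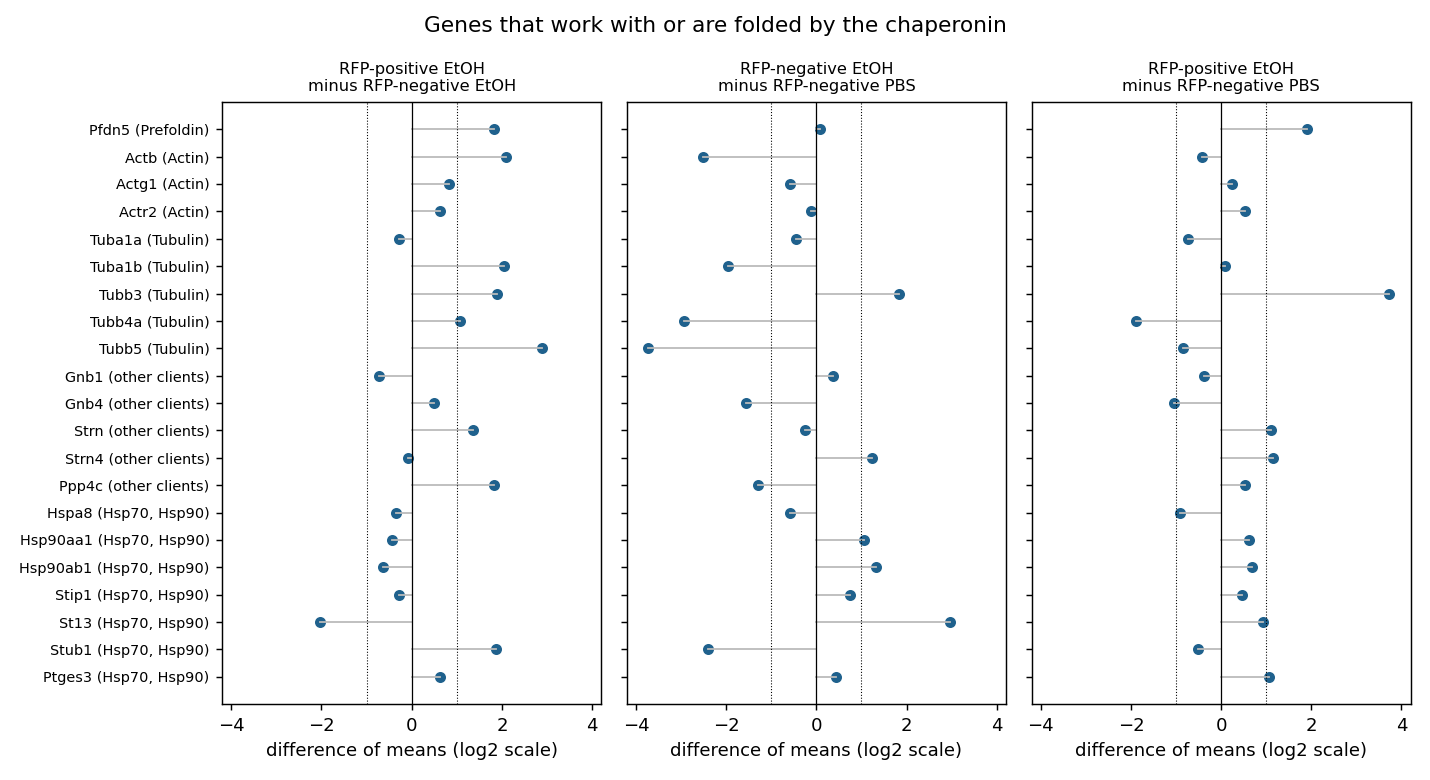
Differences of group means on the log2 scale for the 21 measured partners and clients of CCT (rows, with their list) in the 3 comparisons (panels), with dotted lines at 1 and -1. Tubb5 lies at 2.88 in the left and -3.72 in the middle panel, and Tubb3 at 3.73 in the right panel.

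Likeness across neurons was also searched for in the whole table. The genes most alike each subunit across the 28 neurons were found by Spearman correlation, and 3 per subunit are given. Cct4 had the closest ones, with Ugp2, which makes UDP-glucose, at 0.82, Tars, the threonyl-tRNA synthetase, at 0.78 and Secisbp2l at 0.69. Of the 9 neurons with Cct4 above the trough, 4 also had Ugp2, 6 had Tars and 6 had Secisbp2l there. After the upper quartile shift the Cct4 values were 0.74, 0.62 and 0.71. Among neurons with both genes below the trough, the unshifted values were 0.78 (18 neurons), 0.81 (18 neurons) and 0.71 (16 neurons). The likeness thus includes an order among low values. These genes were chosen for their correlation, so its size is a description.

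**Figure D5:**
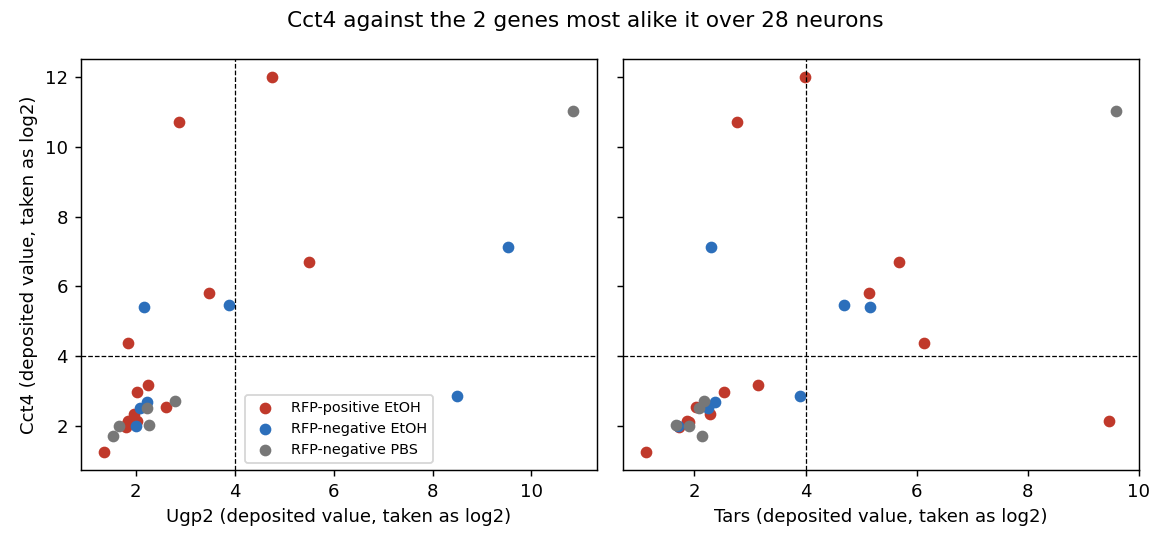
Cct4 (vertical axis) against Ugp2 and Tars (horizontal axes) in each neuron, all as deposited values taken as log2, coloured by group, with the trough at 4 dashed. Most neurons have both genes below 4, and 4 neurons for Ugp2 and 6 for Tars lie in the upper right.

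Cct3 was most like Fabp5, a fatty acid-binding protein gene, at 0.67, Ythdf1, a reader of methylated RNA, at 0.61, and Hspa12a, a distant Hsp70 family member, at 0.60. Only 1 of the 5 neurons with Cct3 above the trough had Fabp5 there, and 2 each had Ythdf1 and Hspa12a. Cct6a was most like Sec23a, a coat protein of vesicles leaving the endoplasmic reticulum, at 0.65, Tex264 at 0.62 and Prkar2b, a regulatory subunit of protein kinase A, at 0.59. Each of these was above the trough together with Cct6a in 3 neurons, out of 4 neurons for Sec23a, 6 for Tex264 and 4 for Prkar2b. After the upper quartile shift, these values were 0.69, 0.37 and 0.49 for Cct3 and 0.48, 0.38 and 0.34 for Cct6a. Among neurons with both genes below the trough, the unshifted values were 0.62, 0.83 and 0.75 for Cct3. For Cct6a they were 0.17, -0.06 and 0.49.

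Cct8 was most like Eloc, the elongin C gene, at 0.57, Rpl6 of the large ribosomal subunit at 0.54 and the astrocytic transporter gene Slc1a2 at 0.53. Of the 10 neurons with Cct8 above the trough, 9 also had Eloc there, out of 14 with Eloc, and 8 had Slc1a2, out of 15. The shifted values were 0.55, 0.52 and 0.49. Among neurons with both genes below the trough, the unshifted values were 0.77, 0.65 and 0.60. The part of glial RNA in the Cct8 values was not tested.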

How the data were processed

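Contents of single M1 neurons were converted to libraries with SMARTer and Nextera XT kits and sequenced as single reads. Per the labels' protocols, CASAVA 1.8 demultiplexed the reads and the FASTX-Toolkit filtered them on quality. Bowtie2, Cufflinks 2.2.1 and GRCm38 are named in the submitters' processing notes. Values were deposited on a log scale taken as log2. Neither the base nor how they follow from Cufflinks output is given in the sources used here. The table holds genes above an unstated cut-off, with 28 columns matched to samples and 0 others. The series' design text counts 5 PBS neurons, and all 6 labelled ones were used.

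Differences of group means were taken on the deposited values. Neurons were not treated as replicates of a condition, and the script was tested on simulated data. The trough came from a histogram with bins of 0.25. Neurons with fewer than 5 values exactly equal to those of another neuron lay outside the large set. Differences of at least 1 were counted as past the threshold. Counts of partner and client genes, and correlations, under the upper quartile shift and without PBS neuron 1 were added after seeing the data. The members, lists and tests were chosen with earlier results of these data known. Named genes were the members, the 3 most correlated genes per member (passing over pseudogenes, predicted genes, Xist and Y-linked genes) and every measured gene of lists with 8 or fewer measured genes. The lists of other CCT subunits, phosducin-like proteins, tubulin cofactors and the mitochondrial chaperonin had 0 genes analysed here, as had the endothelial and blood markers. The full oligodendrocyte marker list is not reported here. GENCODE M21 held 1020 of 1024 gene IDs. Python 3.11.15, NumPy 2.4.6, pandas 2.3.3, SciPy 1.17.1 and matplotlib 3.10.9 were used.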

Additional observations from a re-analysis of the deposited data

Results flagged for a closer look

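Within the RFP-negative groups, 8 sets of subunit values were checked for a neuron far from the rest of its group, and 2 had one. The limit used is passed by chance about 1 in 20 times where values spread around a single mode. Values here have several modes and the sets share neurons, so that rate does not hold for them. Cct4 in PBS neuron 1 was 11.04, and the next highest PBS value was 2.71. Cct3 in RFP-negative EtOH neuron 1 was 3.35, still below the trough, and the next highest value was 2.29. PBS neuron 1 also had the most high genes, and RFP-negative EtOH neuron 1 lay outside the large set of neurons.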

How the results depend on the processing

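No paired analysis was possible because the results come from no test and neuron numbers name no shared animal. Comparisons are abbreviated here as RFP-positive EtOH minus RFP-negative EtOH (A), RFP-negative EtOH minus PBS (B) and RFP-positive EtOH minus PBS (C). With group medians the Cct3 difference in A was 0.62, and genes higher by at least 1 numbered 138, 157 and 115 in A, B and C, against 269, 244 and 255 with means. With arithmetic means of linear values, Cct3 and Cct4 in A were 5.26 and 3.47, Cct4, Cct6a and Cct8 in B were -3.30, -5.09 and 3.39, Cct3 and Cct6a in C were 3.90 and -3.23, and the median of the subunits was 2.67 in A and -2.33 in B. Genes higher by at least 1 then numbered 518 in A and 480 in C. The upper quartile shift put the subunit median at 0.056 in A and 0.17 in B, beside -0.20 and 0.49 over all genes. In A it gave 139 higher and 268 lower genes, against 269 and 161. With Mbp below the trough, Cct3 in A was 2.65, and in B and C this setting was not run, with 2 PBS neurons left. With Gad1 below the trough, the subunit median in B was -0.91. Counting only genes above the trough in at least 50% of the higher group left 81 higher and 96 lower genes in A, 109 and 156 in B, and 67 and 125 in C. With the limit raised to 5, the share of RFP-negative EtOH neurons with Cct6a above it was 0%. Leaving out each neuron in turn gave subunit medians of 0.30 to 0.98 in A, -0.97 to 0.073 in B and -0.14 to 0.88 in C. It gave differences of 1.28 to 1.96, -1.06 to -0.37 and 0.42 to 1.39 for Cct3, and of -0.41 to 0.67, -0.18 to 1.82 and -0.07 to 1.96 for Cct4, in A, B and C. For Cct6a it gave 0.76 to 1.21, -2.96 to -1.07 and -1.97 to -0.08, and for Cct8 -0.62 to 1.05, -1.11 to 0.64 and -0.54 to 0.49. Of the 12 subunit differences, 4 changed sign with group medians, 2 with arithmetic means, 1 with the upper quartile shift, 3 in the large set and 2 with Gad1 below the trough. No cause of these shifts was tested. Read depth is unknown, so how far it limits the low values cannot be stated.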
